A study of Mus musculus with 24 samples.

Results

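The Slc25 family of mitochondrial carriers was followed in epididymal white adipose tissue (eWAT) of 24 male mice. Members were chosen by symbol alone, as every gene of the deposited table named Slc25a followed by a number, and 40 of its 16730 genes had such a name. Of these, 39 were among the 15020 genes with at least 1 CPM (reads scaled to a common library total) in at least 3 mice and could be tested. The fortieth, Slc25a31, the ADP/ATP carrier of testis, had 0 to 1.27 CPM per library. RNA was sequenced from the 3′ end (QuantSeq), with 1 library per mouse, in 4 groups of 6 mice: Lama4 fl/fl on chow, Lama4 AKO on chow, Lama4 fl/fl on a high-fat diet (HFD, 45% fat) and Lama4 AKO on HFD. Mice were on a C57BL/6J background, and both diets were given for 20 weeks before tissue was taken. The cohorts were 24 weeks old at the end of chow and 26 weeks old at the end of HFD, so diet and age cannot be told apart. All groups carried Lama4, the gene of the laminin α4 chain of basement membranes, with exon 3 between loxP sites. AKO mice also carried Cre driven by the adiponectin promoter, which acts in adipocytes and leaves Lama4 intact in the other cells of the tissue, and fl/fl mice were littermates without Cre. Values are from whole tissue, so fewer cells of a type and less RNA per cell cannot be told apart.

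Slc25 carriers are small proteins of the mitochondrial membranes, mostly the inner one, that exchange or import metabolites which cannot cross it unaided. They bring in phosphate and ADP for ATP synthesis, move citrate, malate, aspartate and glutamate between matrix and cytosol, and supply the matrix with carnitine esters, cofactors, nucleotides and iron. In white adipocytes, citrate that leaves the matrix through the citrate carrier is the source of cytosolic acetyl-CoA for lipogenesis, and the dicarboxylate carrier is abundant.

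Several features of the libraries bear on every value below. Lama4 itself lay at 41.2 to 196 CPM in chow fl/fl, 64.2 to 133 in chow AKO, 32.4 to 135 in HFD fl/fl and 36.4 to 92.5 in HFD AKO libraries, and neither genotype comparison passed (log2 differences of 0.11 on chow and -0.69 on HFD, adjusted p = 0.980 and 0.347, edgeR quasi-likelihood test with Benjamini-Hochberg adjustment). Counts from the 3′ end lie outside the deleted exon, so this is no direct check of the deletion. By quantitative PCR, the study reported lower Lama4 in eWAT of chow-fed AKO mice than in controls. Why the counts on chow do not show this was not tested. Library totals were 5579590 to 18764516 counts. On the first principal component, which held 45.8% of the variance, HFD fl/fl replicates 1, 2 and 5 lay between -73.5 and -48.2 and replicates 3, 4 and 6 between 9.88 and 76.1, so this group was split. Other groups were spread too, with -46.8 to 91.8 in chow fl/fl, -22.1 to 74.8 in chow AKO and -61.5 to -0.85 in HFD AKO libraries. The summed level of 8 adipocyte markers had group medians of 31744 CPM in chow fl/fl (19137 to 49660), 28921 in chow AKO (14876 to 39499), 18765 in HFD fl/fl (8693 to 45057) and 10175 in HFD AKO (8506 to 23962).

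Of these 8 markers, 4 passed the test as lower on HFD in AKO mice (Adipoq, Cfd, Lep and Lipe), and 0 did in fl/fl mice. Of 8 macrophage markers, 1 was called higher on HFD in AKO mice (Cd68), and the medians of their sum were 7341, 3979, 6757 and 9496 CPM in the same order of groups. In the same comparison 3 of 6 endothelial and 2 of 5 mesothelial markers were called lower and 1 of 5 fibroblast markers higher, while 0 of 7 lymphocyte, 0 of 5 erythroid, 0 of 2 skeletal muscle and 0 of 5 brown fat markers were called. Summed lymphocyte markers lay at 2.76 to 79.2 CPM and the epididymal epithelium markers Lcn5 and Adam7 at no more than 17.6 CPM. Over all genes tested, 22.1% were called between HFD and chow in AKO mice and 0% in fl/fl mice. The part of cell composition in the differences below was not tested.

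Some carriers differed between diets in AKO mice, at about the share found over all genes. For the interaction of diet and genotype, 0 members were called. At an adjusted p of at most 0.05 (edgeR quasi-likelihood test, Benjamini-Hochberg over 15020 genes), 9 of 39 members were called between HFD and chow in AKO mice, 23.1% of the family against 22.1% of all genes tested. Of these, 5 were higher on HFD (Slc25a3, Slc25a11, Slc25a12, Slc25a14 and Slc25a37) and 4 were lower (Slc25a1, Slc25a10, Slc25a29 and Slc25a35), against 9.13% of all genes higher and 12.9% lower. The family as a whole was therefore called about as often as other genes, and its median absolute log2 fold change was 0.43 beside 0.40 over all genes. In fl/fl mice 0 of 39 members were called, as were 0% of all genes, and 2 members and 9.01% of all genes had an unadjusted p under 0.05. DESeq2 and limma-voom also called 0 members there. The summed CPM of all 40 members was nearly level across groups, with medians of 2313 in chow fl/fl, 2428 in chow AKO, 2335 in HFD fl/fl and 2355 in HFD AKO. The plot of the response to HFD shows the members by transported substrate.

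**Figure D1:**
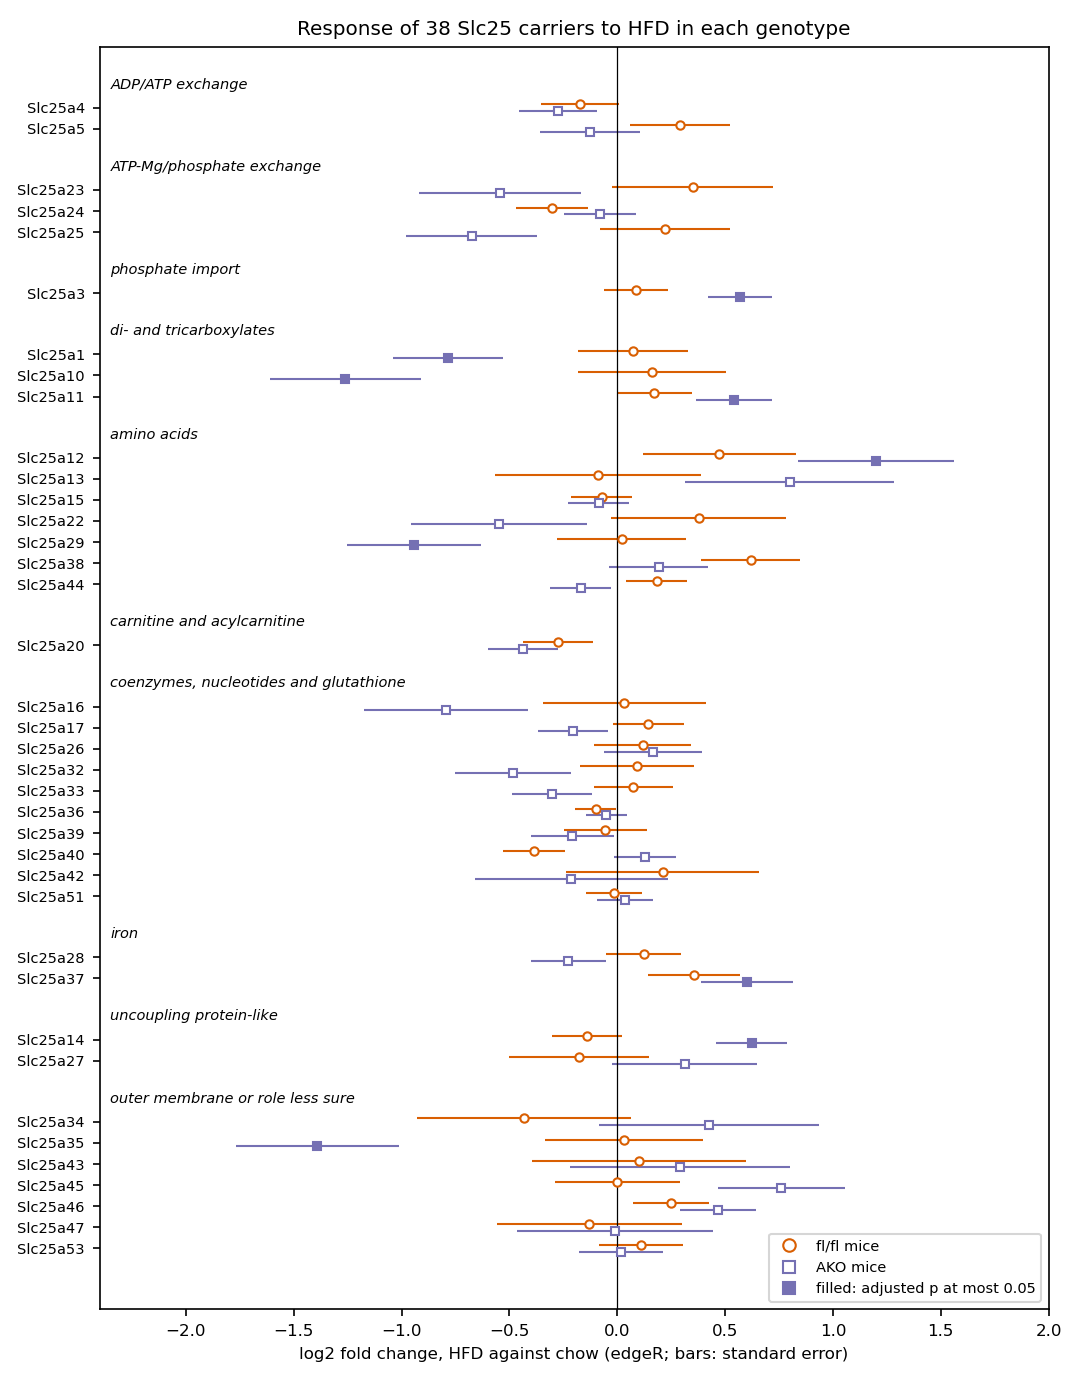
Log2 fold change between HFD and chow for 38 of the 39 tested carriers, grouped by substrate, in fl/fl mice (circles) and AKO mice (squares). Bars show the standard error derived from the edgeR F statistic (n = 6 per group). Filled symbols mark an adjusted p of at most 0.05, which 9 members reached in AKO mice and 0 in fl/fl mice. The values in AKO mice run from -1.39 (Slc25a35) to 1.199 (Slc25a12), those in fl/fl mice from -0.43 to 0.62.

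The count in AKO mice depended on single mice. It was 1 without chow AKO replicate 3 or without HFD AKO replicate 4, 3 without chow AKO replicate 1, 4 without HFD AKO replicate 5, 5 without HFD AKO replicate 2, and 14 without chow AKO replicate 5. The share of all genes called in these fits is not given here, so the dependence is not shown to be particular to the carriers. Slc25a14 was the member called in every one of the 12 fits that left out a mouse of these groups. In each of the 9 called members, the fold change had the same sign in those fits and under every other setting tried.

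Among carriers of adenine nucleotides and phosphate, 1 of 6 tested members was called in AKO mice, beside 22.1% of all genes. Slc25a3, which imports the phosphate used by ATP synthase, lay at 319 to 441 CPM with a median of 365 in chow AKO and at 475 to 615 CPM with a median of 567 in HFD AKO libraries. All 6 HFD AKO libraries were above all 6 chow AKO libraries. The share of all genes without overlap is not given here, so this is not shown to be unusual. Slc25a3 was higher by 0.57 ± 0.15 on the log2 scale (SE, n = 6 per group, adjusted p = 0.0198, edgeR), a fold of 1.49. The call was lost without chow AKO replicate 3 or HFD AKO replicate 4. Libraries of fl/fl mice overlapped, with medians of 425 and 450 CPM on chow and HFD and a log2 fold change of 0.08 ± 0.15. Slc25a4, an ADP/ATP carrier of the inner membrane, had medians of 362, 278, 286 and 250 CPM in chow fl/fl, chow AKO, HFD fl/fl and HFD AKO libraries, and neither diet comparison passed (log2 fold changes of -0.17 in fl/fl and -0.27 in AKO mice). Slc25a24, a calcium-regulated ATP-Mg/phosphate carrier, had one of the 3 lowest p-values of the family for diet in fl/fl mice. It ranged from 47.4 to 108 CPM on chow and from 52.9 to 77.6 CPM on HFD there, with a log2 fold change of -0.30 ± 0.17 that did not pass (adjusted p = 0.602, edgeR) and was -0.18 without chow fl/fl replicate 2.

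All 3 tested carriers of di- and tricarboxylates were called in AKO mice, beside 22.1% of all genes, and not in 1 direction. The substrate groups were written with earlier results of these data known, so this count is not shown to be particular to the class. Slc25a1, the citrate carrier, lay at 122 to 321 CPM (median 196) in chow AKO and at 72.4 to 162 CPM (median 116) in HFD AKO libraries, with overlap. It fell by 0.78 ± 0.26 on the log2 scale (adjusted p = 0.0352, edgeR). Slc25a10, the dicarboxylate carrier that exchanges malate or succinate for phosphate, lay at 77.2 to 168 CPM (median 135) in chow AKO and at 30.2 to 96.4 CPM (median 44.7) in HFD AKO libraries. Of the HFD AKO libraries, replicate 6 at 96.4 CPM reached into the chow range. It fell by 1.26 ± 0.35 (adjusted p = 0.0227, edgeR), 2.40-fold. Slc25a11, the oxoglutarate/malate carrier of the malate-aspartate shuttle, instead moved up: it lay at 58.6 to 92.9 CPM (median 70.3) on chow and at 91.4 to 114 CPM (median 105) on HFD, so the groups touched only at their ends. It rose by 0.54 ± 0.18 (adjusted p = 0.0342, edgeR). In fl/fl mice the medians of these carriers on chow and HFD were 136 and 139 CPM for Slc25a1, 84.4 and 86.0 for Slc25a10 and 79.3 and 89.0 for Slc25a11, and none passed. HFD fl/fl libraries spread widely: Slc25a10 was at 32.7 and 35.7 CPM in replicates 1 and 5 and at 157 and 178 CPM in replicates 4 and 6. The calls were lost in 8 of 12 fits that left out 1 mouse for Slc25a1 and for Slc25a11 and in 2 of 12 for Slc25a10 (chow AKO replicate 3 or HFD AKO replicate 4).

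Carriers of amino acids did not move as a group, with 2 of 7 called in AKO mice beside 22.1% of all genes. Slc25a12, an aspartate-glutamate carrier that works in the malate-aspartate shuttle with Slc25a11, had the highest fold change of the family. It lay at 14.4 to 34.0 CPM (median 18.0) in chow AKO and at 31.9 to 70.5 CPM (median 52.0) in HFD AKO libraries. The log2 fold change was 1.199 ± 0.36 (adjusted p = 0.0279, edgeR), a fold of 2.30, lost in 6 of 12 fits without 1 mouse. The HFD AKO library within the chow range was again replicate 6. Medians in fl/fl mice were 23.8 CPM on chow and 37.1 on HFD, with HFD libraries from 12.6 to 66.7 CPM and a log2 fold change of 0.47 ± 0.36 that did not pass. Slc25a13, another aspartate-glutamate carrier, had medians of 15.8 CPM in chow AKO and 33.3 in HFD AKO libraries and was not called. Slc25a29, a carrier of basic amino acids, was near the lower limit of measurement at 1.26 to 3.05 CPM in chow AKO and 0.447 to 1.497 CPM in HFD AKO libraries. It fell by 0.94 ± 0.31 (adjusted p = 0.0354, edgeR), lost in 6 of 12 such fits. Slc25a44, which carries branched-chain amino acids, had medians of 47.5, 50.9, 56.9 and 46.0 CPM across the groups and passed in neither genotype. Slc25a38, a glycine carrier needed for heme synthesis, had the lowest p of the family for diet in fl/fl mice. It lay at 8.76 to 12.1 CPM on chow and at 9.83 to 28.2 CPM on HFD, and its log2 fold change of 0.62 ± 0.23 did not pass (adjusted p = 0.448, edgeR). Leaving out HFD fl/fl replicate 1, the highest library, lowered it to 0.37.

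Promoters are shown for carriers called in each direction: Slc25a1 and Slc25a10, which were lower on HFD in AKO mice, and Slc25a3 and Slc25a12, which were higher. They are the 250 bases upstream of the RefSeq start on GRCm38.p6, without any bases inside the gene of GENCODE release M21. For Slc25a3 this left 158 bases, which end upstream of the RefSeq start. The windows are chr16:17928220-17928469 (reverse strand) for Slc25a1, chr11:120491587-120491836 (forward) for Slc25a10, chr10:91124060-91124217 (reverse) for Slc25a3 and chr2:71367756-71368005 (reverse) for Slc25a12. They are printed 5′ to 3′ on the gene's strand. Capitals mark matches on either strand to the E-box CACGTG, to the GC box, which is GGGCGG, to the core TGACG of a CRE, or to the letters of the CCAAT box, whose name spells them.
Slc25a1: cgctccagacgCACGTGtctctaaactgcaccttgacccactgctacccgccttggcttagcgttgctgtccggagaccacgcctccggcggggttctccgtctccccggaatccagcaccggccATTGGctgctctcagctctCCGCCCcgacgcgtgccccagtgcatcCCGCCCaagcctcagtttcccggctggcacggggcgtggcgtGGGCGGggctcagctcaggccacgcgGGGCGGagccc
Slc25a10: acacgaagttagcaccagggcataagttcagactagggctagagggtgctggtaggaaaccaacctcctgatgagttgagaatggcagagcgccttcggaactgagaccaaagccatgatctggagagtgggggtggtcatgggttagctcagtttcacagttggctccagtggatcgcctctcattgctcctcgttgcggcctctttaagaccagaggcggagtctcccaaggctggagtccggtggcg
Slc25a3: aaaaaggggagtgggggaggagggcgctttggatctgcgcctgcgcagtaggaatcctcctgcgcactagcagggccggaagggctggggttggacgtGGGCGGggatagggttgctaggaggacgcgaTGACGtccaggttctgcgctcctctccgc
Slc25a12: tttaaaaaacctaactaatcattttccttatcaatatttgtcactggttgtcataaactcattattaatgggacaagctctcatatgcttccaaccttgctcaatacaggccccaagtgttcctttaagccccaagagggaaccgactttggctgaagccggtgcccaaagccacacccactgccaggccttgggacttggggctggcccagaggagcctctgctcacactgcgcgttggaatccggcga
The windows of Slc25a10 and Slc25a12 held no match. That of Slc25a1 held 3 kinds, and the shorter one of Slc25a3 held 2 kinds. Shares of promoters were counted over all 250 bases upstream of the RefSeq start, with none left out. Over the 31 members with a promoter in RefSeq (40 promoters), a GC box was in 75.0% and an E-box in 20.0% of windows, beside 32.7% and 6.02% of all 32851 promoters. A CCAAT box was in 47.5% beside 33.8% and a CRE core in 27.5% beside 17.8%. A match describes the letters of the window and not binding.

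Slc25a20, the carnitine-acylcarnitine carrier that brings fatty acyl groups into the matrix for oxidation, was lower on HFD in the comparison averaged over genotypes. It lay at 69.9 to 85.6 CPM (median 71.98) in chow fl/fl, 54.6 to 86.9 (median 77.8) in chow AKO, 39.5 to 86.8 (median 57.8) in HFD fl/fl and 46.5 to 60.2 (median 54.8) in HFD AKO libraries. The averaged log2 fold change was -0.36 ± 0.12 (adjusted p = 0.0463, edgeR). Within genotypes it was -0.27 in fl/fl mice and -0.44 in AKO mice, and neither passed.

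Of 11 tested carriers of coenzymes, nucleotides and glutathione, 0 were called for diet in either genotype. The shares of all genes called were 22.1% in AKO and 0% in fl/fl mice. Slc25a51, which imports NAD, had medians of 200 CPM in chow fl/fl, 213 in chow AKO, 199 in HFD fl/fl and 222 in HFD AKO libraries, and log2 fold changes between -0.02 and 0.04. Slc25a40, a glutathione carrier, was among the lowest p-values for diet in fl/fl mice (7.50 to 10.3 CPM on chow, 5.54 to 8.28 on HFD, log2 fold change -0.39 ± 0.14, adjusted p = 0.448, edgeR).

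Slc25a37, mitoferrin-1, the iron importer known from erythroid cells, was called higher on HFD in AKO mice, and the other iron carrier, Slc25a28, was not (log2 fold change -0.23). Slc25a37 lay at 30.5 to 63.3 CPM (median 39.5) in chow AKO and at 49.1 to 71.7 CPM (median 67.3) in HFD AKO libraries. The chow AKO library within the HFD range was replicate 5, the one of 5579590 counts. The log2 fold change was 0.60 ± 0.21 (adjusted p = 0.0475, edgeR), the weakest of the 9 calls and lost in 10 of 12 fits without 1 mouse. Summed erythroid markers had medians of 3370 CPM in chow AKO and 2098 in HFD AKO libraries, and 0 of 5 were called. The Slc25a37 medians in fl/fl mice were 40.5 and 55.8 CPM, with a log2 fold change of 0.36 ± 0.21 that did not pass.

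Slc25a14, a member with sequence similarity to the uncoupling proteins, had the call that was lost in 0 of 12 fits without 1 mouse. It lay at 5.63 to 7.01 CPM (median 6.49) in chow AKO and at 7.80 to 11.3 CPM (median 10.005) in HFD AKO libraries. The groups did not overlap, and the share of all genes without overlap is not given here. The log2 fold change was 0.62 ± 0.16 (adjusted p = 0.0206, edgeR), a fold of 1.54. Its range in fl/fl mice was 6.72 to 12.0 CPM on chow and 5.27 to 10.1 CPM on HFD, with a log2 fold change of -0.14 ± 0.16. Of the 5 family genes with other symbols (Ucp1, Ucp2, Ucp3, Mtch1 and Mtch2), 0 were called for diet, beside 22.1% of all genes in AKO mice. Ucp2, which is expressed in macrophages and other cells, lay at 122 to 391 CPM in chow AKO and at 392 to 536 CPM in HFD AKO libraries, with a log2 fold change of 0.93 ± 0.34 (adjusted p = 0.0528, edgeR). Ucp1, the uncoupling protein of brown fat, was at 0.0657 to 4.78 CPM over the 24 libraries.

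Of 7 tested members of the outer membrane or of less certain role, Slc25a35 was called in AKO mice, beside 22.1% of all genes. Its substrate is less well established. It lay at 6.15 to 23.6 CPM (median 13.1) in chow AKO and at 3.99 to 8.59 CPM (median 4.82) in HFD AKO libraries, and fell by 1.39 ± 0.38 on the log2 scale (adjusted p = 0.0220, edgeR), 2.62-fold and the lowest value of the family. The call was lost without chow AKO replicate 1 or 3 or HFD AKO replicate 4. The last 1000 bases of Slc25a35 overlap Rangrf on the opposite strand, and whether strand was used in counting is not given in the sources used here. Its medians in fl/fl mice were 11.3 and 8.78 CPM, with a log2 fold change of 0.03 ± 0.37. Slc25a46, an outer membrane protein of mitochondrial dynamics, had medians of 66.9, 63.9, 73.4 and 83.2 CPM across the groups and lay just outside the threshold in AKO mice (log2 fold change 0.47 ± 0.18, adjusted p = 0.0580, edgeR). Slc25a20 and Slc25a45 also lay just outside it (adjusted p = 0.0553 and 0.0623, edgeR).

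**Figure D2:**
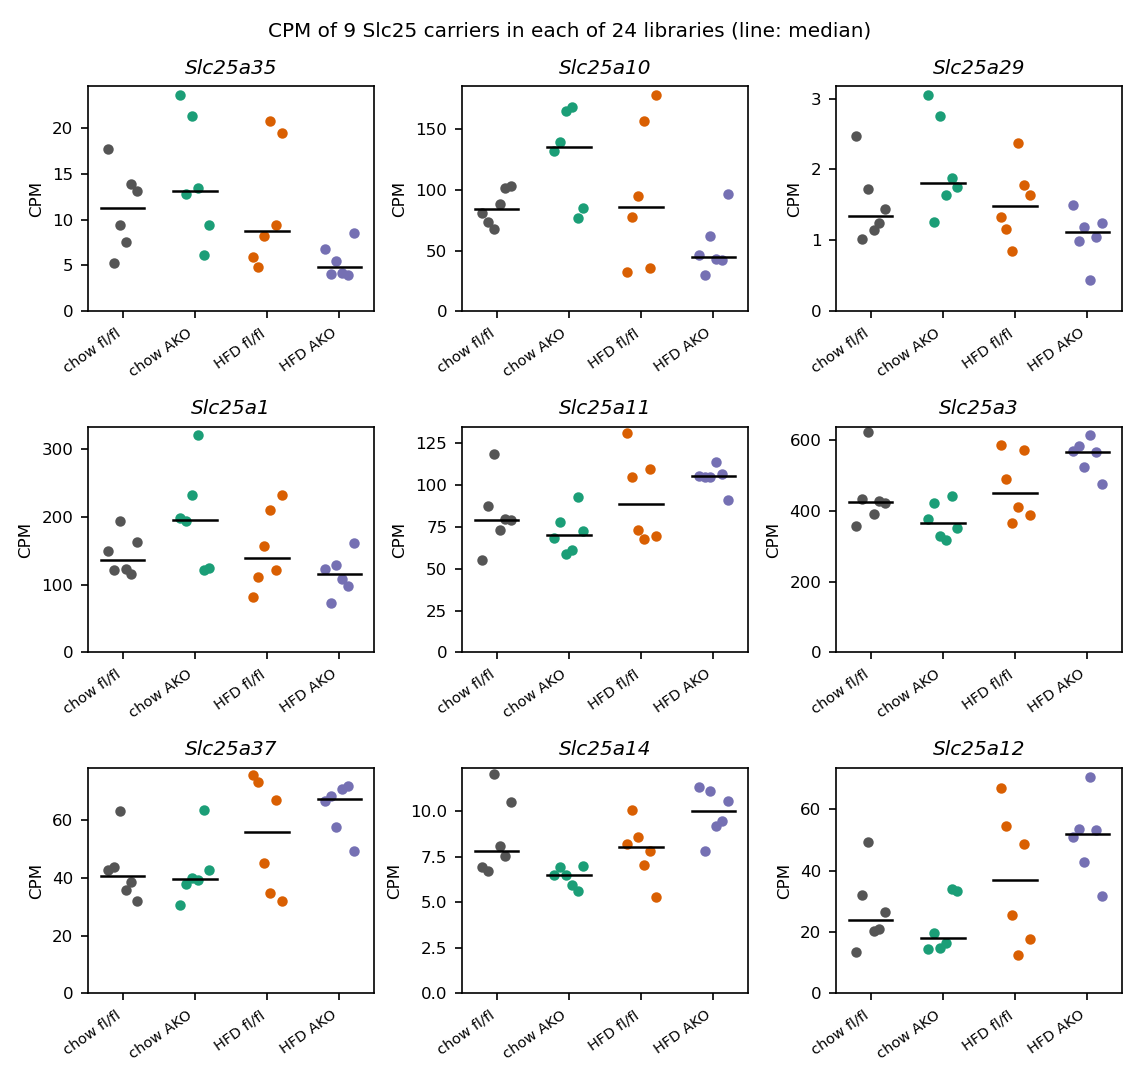
CPM in each of the 24 libraries for the 9 members called between HFD and chow in AKO mice, with 1 point per mouse, colours for the 4 groups and lines for group medians, on linear axes from 0. Slc25a3 and Slc25a14 show no overlap between chow AKO and HFD AKO libraries, and the share of all genes without overlap is not given here. HFD fl/fl libraries spread over most of the range of the other groups, for Slc25a10 from 32.7 to 178 CPM.

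Averaged over both genotypes, 4 of 39 members were called between HFD and chow, 10.3% of the family beside 12.4% of all genes (5.39% higher and 6.98% lower). Slc25a12 (log2 fold change 0.84 ± 0.25, adjusted p = 0.0387), Slc25a37 (0.48 ± 0.15, adjusted p = 0.0434) and Slc25a3 (0.33 ± 0.10, adjusted p = 0.0446) were higher, and Slc25a20 was lower, all by edgeR. These calls lay close to the threshold. Leaving out 1 mouse gave 0 called members in 15 of 24 fits, 1 without chow fl/fl replicate 2 or HFD AKO replicate 3, 7 without chow AKO replicate 5, chow fl/fl replicate 3 or HFD fl/fl replicate 4, and 8 without HFD AKO replicate 6 or HFD fl/fl replicate 6. The 15 mice were chow AKO replicates 1 to 4, chow fl/fl replicates 1 and 4 to 6, HFD AKO replicates 1, 2, 4 and 5, and HFD fl/fl replicates 1, 2 and 5. The share of all genes called in these fits is not given here.

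Genotype was compared within each diet, the question being whether loss of Lama4 in adipocytes alters the carriers. On chow, 0 of 39 members and 0% of genes were called by edgeR, and 1 member had an unadjusted p under 0.05 beside 5.85% of all genes. That member, Slc25a14, was at 6.72 to 12.0 CPM in fl/fl and 5.63 to 7.01 CPM in AKO libraries, with a log2 difference of -0.43 (95% interval -0.75 to -0.11, adjusted p = 0.794, edgeR). Next came Slc25a1 and Slc25a10, with differences of 0.46 (95% interval -0.04 to 0.96) and 0.58 (-0.10 to 1.25), and that of Slc25a1 was 0.27 without chow AKO replicate 4. On HFD, 0 members and 0% of genes were called, with 6 members and 14.8% of all genes at an unadjusted p under 0.05. Slc25a40 had the lowest p, at 5.54 to 8.28 CPM in fl/fl and 7.50 to 11.2 CPM in AKO libraries and a log2 difference of 0.46 (0.18 to 0.74, adjusted p = 0.291, edgeR). Slc25a35 and Slc25a10 followed, with -1.04 (-1.78 to -0.30) and -0.85 (-1.52 to -0.17). DESeq2 and limma-voom called 0 members on either diet. With sample quality weights, limma-voom called 7 members on HFD and 0 on chow, and the share of all genes is not given here. Of the 3 members named for HFD, Slc25a10 passed by that fit (-1.04, adjusted p = 0.0254, limma), whereas Slc25a35 (adjusted p = 0.0528, limma) and Slc25a40 (adjusted p = 0.0943, limma) did not.

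Whether diet acted differently in the genotypes was tested as an interaction, for which 0 members were called beside 0.00666% of genes (1 gene). An unadjusted p under 0.05 was reached by 9 members and 15.6% of all genes, and DESeq2 and limma-voom called 0 members. Slc25a14, Slc25a10 and Slc25a35 had the lowest p-values. The diet difference in AKO minus that in fl/fl mice was 0.76 ± 0.23 on the log2 scale for Slc25a14 (adjusted p = 0.235, edgeR), -1.42 ± 0.49 for Slc25a10 (adjusted p = 0.250) and -1.42 ± 0.52 for Slc25a35 (adjusted p = 0.257). With sample quality weights, limma-voom called 14 members, these 3 among them, at 0.80 for Slc25a14 (adjusted p = 0.0127, limma), -1.56 for Slc25a10 (adjusted p = 0.00767) and -1.71 for Slc25a35 (adjusted p = 0.0133). By edgeR, the 9 calls in AKO mice beside 0 in fl/fl mice are therefore not shown to differ between the genotypes. Whether the named members passed depended on the sample weights. The share of all genes called with those weights is not given here, so the 14 are not a result about the carriers.

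The counts differed when 5 libraries were set aside. The study set aside outlying mice by principal components of the same counts, and the mice it kept were inferred, from its plots and gene numbers, to be the 19 without chow fl/fl replicate 3, chow AKO replicate 5 and HFD fl/fl replicates 3, 4 and 6. Since those mice were chosen on their expression, a test on the remaining ones is no independent check. With the 19 mice, 10 of 39 members were called for diet in fl/fl mice (25.6%, beside 29% of all genes), 17 in AKO mice (43.6% beside 40.3%) and 16 averaged over genotypes (41% beside 51.9%), and 0 for genotype on either diet or the interaction. In fl/fl mice, Slc25a3, Slc25a11, Slc25a12, Slc25a37, Slc25a38 and Slc25a46 were then higher on HFD (13.6% of all genes were) and Slc25a4, Slc25a20, Slc25a24 and Slc25a40 lower (15.5%). Slc25a12 had a log2 fold change of 1.32 in fl/fl and 1.36 in AKO mice in that set, and Slc25a37 one of 0.90 and 0.75. The 17 members called in AKO mice included all 9 of the fit to 24 mice. For Slc25a10, the log2 difference between HFD AKO and HFD fl/fl mice was -0.85 with 24 mice and 0.13 with 19, and neither passed.

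**Figure D3:**
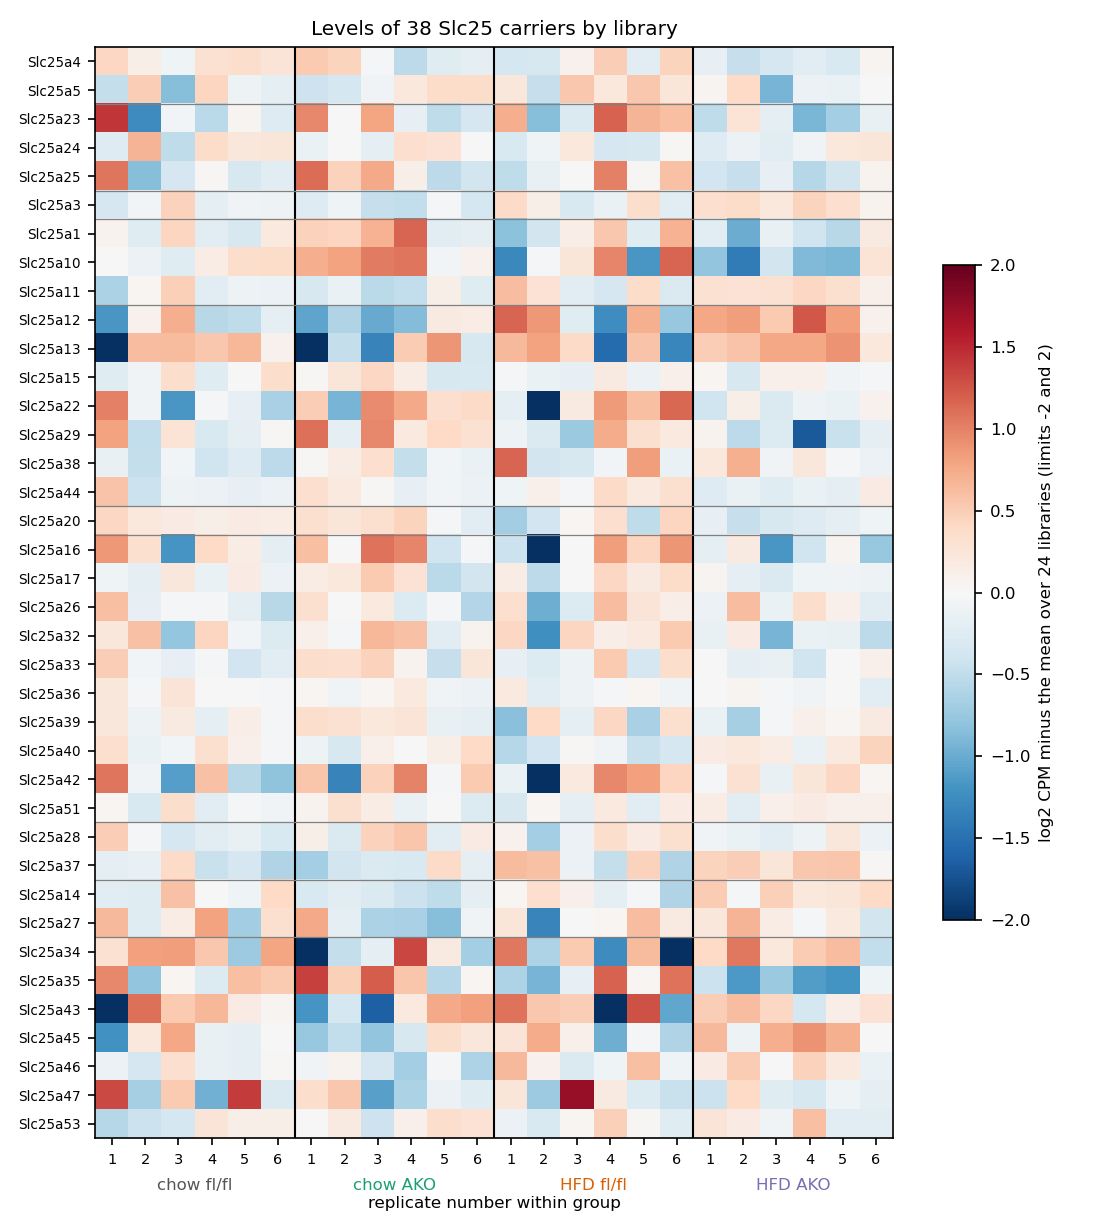
Log2 CPM of 38 of the 39 tested carriers (one line per member, in the order of substrate groups) in each of the 24 libraries (columns, by group and replicate), as the difference from the member's mean over all libraries, with colour limits of -2 and 2. HFD fl/fl replicates 4 and 6 have high Slc25a10 (157 and 178 CPM) and low Slc25a12 (12.6 and 17.8 CPM), while replicates 1 and 5 have the opposite.

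Levels of 8 of 10 called carriers were related to the adipocyte markers across mice of the same group, and so were many other genes. For the 10 members called for diet in AKO mice or averaged over genotypes, log2 CPM was related to log2 of the summed CPM of the 8 adipocyte markers over the 24 libraries, both as deviations from group means, with p-values from 100000 permutations within groups (1e-05 is the smallest they can give) adjusted over the 10 relations. Slc25a12 had the strongest relation (r = -0.94, rho = -0.94, both p = 1e-05, adjusted p = 3.33e-05), and r was -0.91 without the 2 libraries farthest from the median (HFD fl/fl replicates 1 and 4). Within single groups its r was -0.98 in chow fl/fl, -0.89 in chow AKO, -0.99 in HFD fl/fl and -0.88 in HFD AKO libraries (n = 6 each). Slc25a37 (r = -0.87, rho = -0.86), Slc25a11 (r = -0.81, rho = -0.83) and Slc25a3 (r = -0.67, rho = -0.70) were likewise lower where markers were higher. Slc25a35 (r = 0.86, rho = 0.84), Slc25a20 (r = 0.83, rho = 0.79), Slc25a10 (r = 0.81, rho = 0.78) and Slc25a1 (r = 0.68, rho = 0.64) were higher with them. For these 7 members besides Slc25a12, permutation p-values were 1e-05 to 0.00618, adjusted values at most 0.00773, and r without the 2 libraries was 0.58 to 0.83 in size. Slc25a29 (r = 0.40, rho = 0.39, adjusted p = 0.0801 and 0.0891, permutation) and Slc25a14 (r = -0.33, rho = -0.25, adjusted p = 0.163 and 0.273, permutation) did not pass. Slc25a1 had an r of -0.34 in chow fl/fl and of 0.97 in HFD fl/fl libraries. An r of at least 0.667 in size, the weakest of these 8, was also found for 32.2% of the 14317 tested genes with a count in every library, markers left out, and for 15 of all 39 members. The median size of r was 0.52 over the members and 0.52 over those genes. Both measures in a point come from 1 library and its total, and whether adipocyte content accounts for the diet differences was not tested.

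**Figure D4:**
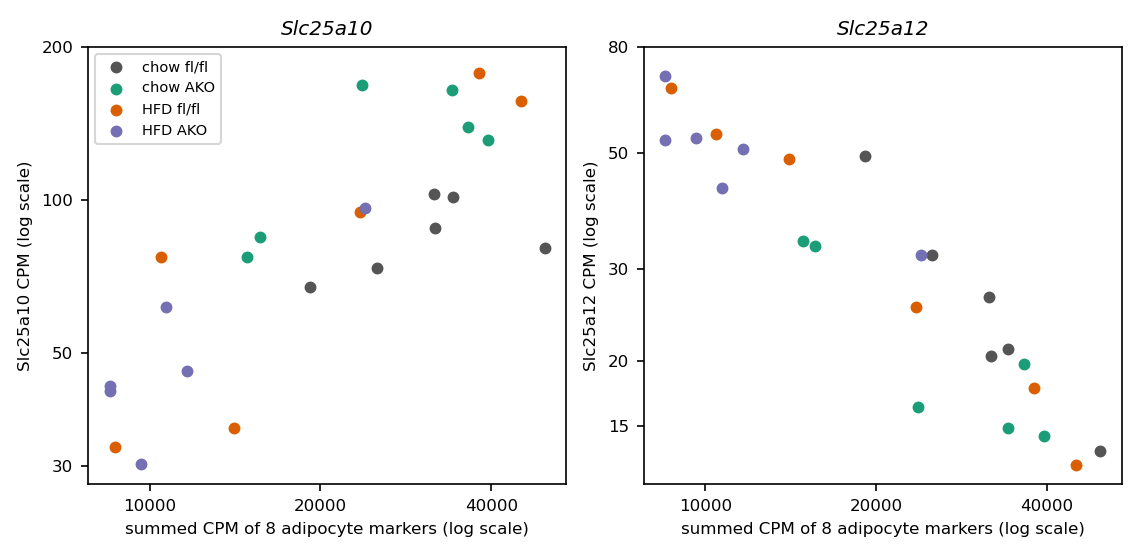
CPM of Slc25a10 (left) and Slc25a12 (right) against the summed CPM of 8 adipocyte markers, both on log axes, with 1 point per library and colours for the 4 groups. Slc25a12 is lower in libraries with higher summed markers in every group (r of -0.88 to -0.99 within groups), and Slc25a10 is higher (r of 0.51 to 0.87).

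Genes that work with the carriers were counted from lists of their pathways, which were written with earlier results of these data known. In AKO mice, 4 of 12 enzymes of citrate export and the malate-aspartate shuttle were called between HFD and chow. Got1, the cytosolic aspartate aminotransferase, rose by 0.87 ± 0.25 on the log2 scale (adjusted p = 0.0234, edgeR). Acly, which cleaves exported citrate to acetyl-CoA, fell by 0.78 ± 0.24 (adjusted p = 0.0284), Idh1, the cytosolic isocitrate dehydrogenase, fell by 0.81 ± 0.23 (adjusted p = 0.0240), and Pcx, pyruvate carboxylase, fell by 1.07 ± 0.34 (adjusted p = 0.0316). Acly lay at 102 to 243 CPM in chow AKO and at 85.9 to 120 CPM in HFD AKO libraries, with overlap, beside Slc25a1. Of 17 other transporters of the inner and outer membrane, 4 were called: Sfxn3 (0.88), Vdac2 (0.55), the outer membrane channel, and Mcu (0.43), the calcium uniporter pore, were higher, and Sfxn2 (-0.75) was lower. The list held Mpc1 and Mpc2, the pyruvate carrier, which were not called. Of 4 tested genes of the carnitine shuttle, Cpt1a was higher (0.61), and of 8 enzymes of iron-sulfur clusters and heme, Cpox (0.69) and Ppox (0.37) were higher. Of the 11 components that import carriers into the inner membrane, 0 were called. In fl/fl mice 0 genes of these lists were called with 24 mice. These shares lie beside 22.1% of all genes called in AKO mice and 0% in fl/fl mice.

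On the genome the family is scattered. In release M21 of the GENCODE annotation of GRCm38, whose positions the deposited table shares for all 40 members, the genes lie on 18 chromosomes, with 4 members on the X chromosome. Called members were Slc25a3 at chr10:91116574-91124059, Slc25a14 at chrX:48623413-48662294, Slc25a12 at chr2:71271063-71367749, Slc25a11 at chr11:70644196-70647479, Slc25a37 at chr14:69241848-69285112, Slc25a1 at chr16:17925223-17928219, Slc25a10 at chr11:120491840-120499187, Slc25a29 at chr12:108825873-108835883 and Slc25a35 at chr11:68968131-68974365. Slc25a10, Slc25a11 and Slc25a35 thus share chromosome 11, and Slc25a11 was higher on HFD in AKO mice where the other two were lower. Within the last 1000 bases, where 3′ counts fall, 2 members overlap a small gene on the same strand (Slc25a39 and Slc25a43) and 4 a gene on the opposite strand (Slc25a35 among them).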

How the data were processed

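The authors aligned and counted QuantSeq 3′ reads with Lexogen's pipeline on GRCm38 and deposited raw counts per gene for 24 libraries. A second deposited table holds a normalized signal, in which each library was divided by its size factor, and was used here for symbols and positions only. The submitters' processing notes name R 4.0.3 and DESeq2 1.30. Members were chosen by symbol, and the gene lists, substrate groups among them, were written with earlier results of these data known. The filter required 1 CPM in 3 or more mice. Kept genes were scaled with TMM factors and fitted with edgeR 4.0.16 (R 4.3.3, quasi-likelihood test), with 1 coefficient per group over all 24 mice. Calls were made at a Benjamini-Hochberg adjusted p of at most 0.05, and CPM refer to TMM-scaled library totals. Standard errors were derived as the size of the log2 fold change divided by the square root of the F statistic. The 95% intervals use the normal quantile, so they are somewhat narrower than the F test implies. Named members were those called (at most 10 per comparison, or the 3 of lowest p) and the one of highest mean CPM per substrate group. Counts from the 3′ end were compared between groups for 1 gene, not between genes. The 60 pairs of libraries within groups had correlations of 0.859 to 0.984 and differed by more than counting error. The labels do not say whether mice shared a litter or day. Alternatives were limma-voom 3.58.1 with and without sample quality weights, DESeq2 1.42.0, RLE factors, no filter and filterByExpr, a replicate block, a fit restricted to the groups compared, 19 mice, each mouse left out, and the study's criteria (fold change of 1.5, p of 0.001, 2 CPM). Limma-voom and the study's criteria on the 19 mice were chosen after seeing the data. The test was also run on simulated counts drawn independently for each library. These lacked the split seen among HFD fl/fl libraries, so that run cannot show how the test behaves under it. A count of 0 allows up to 3 counts, and this covers counting error only. No protein sequence is shown. The values of 1 tested member are not reported here and are left out of the plots, and it is counted in the totals.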

Additional observations from a re-analysis of the deposited data

Results flagged for a closer look

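Single libraries stood apart from the other 5 of their group (a gap to the next library beyond Dixon's 95% critical value for 6 samples) in 6 of 68 groups over 17 named members, where chance gives about 5% of groups. Slc25a3 was at 621 CPM in chow fl/fl replicate 3, with the next library at 433. In HFD AKO replicate 4, Slc25a29 was at 0.447 CPM, with the next at 0.985. Chow fl/fl replicate 1 held the highest level of its group for Slc25a20 (85.6 CPM, next 74.5) and for Slc25a44 (76.5 CPM, next 47.8). Slc25a44 was also highest in HFD AKO replicate 6, at 57.8 CPM with the next at 46.9. Slc25a51 was lowest in HFD AKO replicate 2, at 178 CPM with the next at 222. Without HFD AKO replicate 4, Slc25a14 was the 1 member still called for diet in AKO mice, so Slc25a29 was not alone in losing its call.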

How the results depend on the processing

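Of 214 counts of called members under other settings, 170 stayed equal or within a ratio of 1.5 of the main fit, and 44 moved. Of 602 fold changes under other settings, 476 kept their direction and side of the threshold, 118 kept their direction but no longer passed, 7 newly passed and 1 reversed: Slc25a10 for genotype on HFD, at 0.13 with the 19 mice against -0.85. For diet in AKO mice (9 members), the count was 15 with only the groups compared, 19 by limma-voom with sample quality weights, 1 by the study's criteria (beside 4.12% of all genes), and 17 with the 19 mice by edgeR and by limma-voom. For diet averaged over genotypes (4 members), it was 7 by DESeq2, 9 with quality weights, 0 by the study's criteria, 16 with the 19 mice and 17 by limma-voom on them. For diet in fl/fl mice (0 members), it was 10 with the 19 mice, 11 by limma-voom on them and 5 by the study's criteria on them. Quality weights gave 7 members for genotype on HFD and 14 for the interaction, against 0. Where no share of all genes is given here or above, whether carriers were called more often than other genes is not shown. Leaving out 1 mouse gave 1 to 14 members in AKO mice, 0 to 8 averaged over genotypes and 0 in the other comparisons. With the replicate number as a block, 8 members were called in AKO mice and 0 averaged over genotypes. The replicate numbers showed no clear pairing of mice. Same-numbered libraries of different groups had correlations of deviations from -0.53 to 0.71, of which 15 of 36 were over 0.1. Different-numbered ones had -0.66 to 0.72, of which 58 of 180 were over 0.1. Of the 24 libraries, 5 correlated best with their own number. These correlations cannot exclude a shared litter or day. The cause of these changes was not tested. Slc25a27, Slc25a29, Slc25a34 and Slc25a47 lay near 1 CPM, where a library holds few counts. Another scaling moved the median of all genes by less than 0.1 on the log2 scale.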
